A study of Homo sapiens with 2 samples.

Results

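Polycomb repressive complex genes were followed in MDA-MB-231 spheroids, grown from a triple-negative line of human breast cancer. The set held 10 genes of the 57773 in the deposited table of all genes, chosen by symbol as subunits of the Polycomb complexes. SUZ12 and BMI1 had been picked for their difference between the libraries, and the other 8 for their place in the complexes. All 10 genes had a row and passed the minimum of 20 reads over both libraries. RNA was sequenced from 1 untreated spheroid sample (Control) and from 1 sample given TGS24, for which the labels give only this code name, and the study's design names MAPK12 pathway genes. The labels give neither the dose nor the time of treatment. With 1 library in each group there was no replicate check and no test, and every difference below is a difference between these libraries.

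Polycomb proteins keep genes silent by modifying histones. PRC2 places methyl groups on histone H3 through EZH2 or its relative EZH1, which are active only when bound to SUZ12 and EED. PRC1 attaches ubiquitin to histone H2A through RNF2 or RING1, paired with a PCGF protein such as BMI1. Both complexes are studied in breast cancer, where EZH2 and BMI1 have been linked to proliferation and self-renewal.

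The tables gave 8570604 reads for Control and 16145077 for TGS24, after scaled values were turned back into whole reads. RN7SL1, an abundant small RNA, held 41.1% of reads in Control and 31.6% in TGS24. Of 8 markers of MDA-MB-231 cells none was at 0 reads in either library. Levels are given as CPM, reads scaled to a common library size. The summed level of these markers was 847 CPM in Control and 283 in TGS24, and 6 of the 8 were at least 2-fold lower in TGS24. Of all tested genes 6.31% were lower by that measure. After the GC centring described below 5 of the 8 were lower, beside 5.95% of tested genes. The rows of VIM and CD44, also of that list, were irregular and not used here. Luminal epithelial markers, 7 in number without GATA3, whose row was irregular, summed to 15.7 and 8.76 CPM. Of the 4 luminal markers with at least 20 reads ERBB3 was at least 2-fold lower, and none was after GC centring. The 6 fibroblast markers summed to 10.3 and 6.74 CPM, with LUM at 0 reads in Control. Summed levels were 9.08 and 9.62 CPM for 5 leukocyte markers and 3.89 and 2.57 for 3 endothelial markers. The 4 red cell genes summed to 693 and 757 CPM, and ALAS2 alone of these 4 was at least 2-fold lower in TGS24. After GC centring no red cell gene was counted as lower. The part of these levels in the Polycomb ratios was not tested. In bulk RNA, fewer cells of a type and less RNA per cell cannot be told apart.

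Promoter sequences of SUZ12, the gene with the largest ratio, of EZH2, the catalytic subunit beside it, and of RNF2 and RING1, whose ratios had opposite signs, are given here because these genes carry the contrasts below. The EZH2 window is the first of its 2 in the table. Each is the 250 bases before the start of transcription, from RefSeq on GRCh38.p14, written 5′ to 3′ on the strand of the gene. Capitals mark matches on either strand to the CCAAT box (CCAAT), the GC box (GGGCGG), the E2F forms TTTCCCGC, TTTGGCGC, TTTCGCGC and TTTGCCGC, and the core of the cAMP response element (TGACGT). Matches that overlap run together.
SUZ12, chr17:31936757-31937006 (+ strand): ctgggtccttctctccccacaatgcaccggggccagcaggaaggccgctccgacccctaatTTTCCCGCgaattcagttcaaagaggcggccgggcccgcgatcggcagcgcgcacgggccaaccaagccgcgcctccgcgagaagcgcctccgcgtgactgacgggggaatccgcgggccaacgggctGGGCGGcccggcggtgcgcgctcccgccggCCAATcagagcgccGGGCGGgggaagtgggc
EZH2, chr7:148884292-148884541 (- strand): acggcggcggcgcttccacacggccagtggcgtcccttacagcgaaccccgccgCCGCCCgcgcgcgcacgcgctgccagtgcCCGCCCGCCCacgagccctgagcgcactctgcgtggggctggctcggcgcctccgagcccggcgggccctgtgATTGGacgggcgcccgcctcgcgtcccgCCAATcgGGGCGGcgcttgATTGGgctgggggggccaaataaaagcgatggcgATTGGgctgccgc
RNF2, chr1:185045308-185045557 (+ strand): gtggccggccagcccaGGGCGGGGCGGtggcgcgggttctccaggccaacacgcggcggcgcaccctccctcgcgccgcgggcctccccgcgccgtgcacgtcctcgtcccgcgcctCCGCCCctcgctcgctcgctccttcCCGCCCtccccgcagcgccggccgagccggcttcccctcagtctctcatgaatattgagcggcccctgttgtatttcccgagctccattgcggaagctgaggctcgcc
RING1, chr6:33208250-33208499 (+ strand): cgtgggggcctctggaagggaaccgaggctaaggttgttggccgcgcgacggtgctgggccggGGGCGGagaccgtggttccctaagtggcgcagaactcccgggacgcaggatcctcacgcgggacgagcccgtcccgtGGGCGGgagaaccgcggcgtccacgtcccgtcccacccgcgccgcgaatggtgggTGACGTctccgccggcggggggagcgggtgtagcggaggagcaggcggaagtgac

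The SUZ12 window held 1 CCAAT box, 2 GC boxes and 1 E2F form. The EZH2 window held 4 CCAAT boxes and 4 GC boxes, the RNF2 window 4 GC boxes, and the RING1 window 2 GC boxes and 1 TGACGT. All 10 members had at least 1 window in the table, 18 in all. A CCAAT box stood in at least 1 window of 7 members, a GC box in 9, TGACGT in 3 and an E2F form in SUZ12 alone. Of all 35116 promoter windows of that length 32.0% held a CCAAT box, 42.6% a GC box, 7.10% TGACGT and 2.79% an E2F form. Members with several windows had more chances of a match. The windows printed above had 72.8% to 75.6% GC, beside a median of 58.0% over all promoter windows. Over the 18 windows GC content ran from 40.8% to 91.6%, and its part in the matches was not tested. SUZ12 and RING1 windows each had a GC content of 72.8%. A relation of promoter GC content to the ratios in RNA was not tested. Such matches describe letters only and do not show binding.

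Of the 10 Polycomb genes 5 were at least 2-fold higher in TGS24, SUZ12, BMI1, EZH2, PCGF5 and RBBP7, and none was at least 2-fold lower. Of all 10080 tested genes 12.7% were higher by that measure and 6.31% lower. To be counted, a gene needed a log2 ratio of 1 or more, up or down, with a 95% counting interval clear of 0. Among the 8 genes not picked for their pattern 3 were counted as higher. The median log2 ratio was 0.96 over the 10 genes and 0.75 over those 8, beside -0.004 over all tested genes. After the GC centring described below, the medians over the 10 and the 8 genes were 0.48 and 0.35. Of the 8 genes 1 was then counted as higher, beside 5.35% of tested genes. Because the set was proposed with these ratios in view, the counts are a description.

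**Figure D1:**
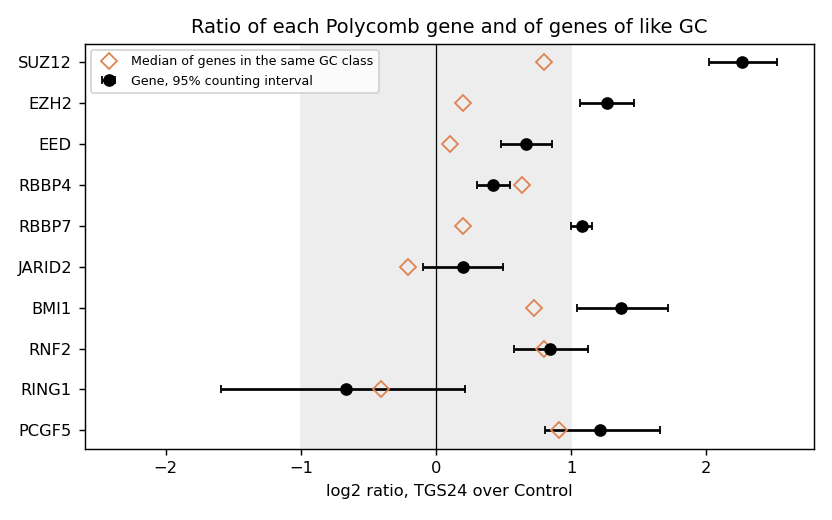
Log2 ratio of TGS24 over Control for each of the 10 Polycomb genes (points) with 95% counting intervals (bars), and the median ratio of tested genes in the same class of transcript GC content (open diamonds), 1 library per group. The grey band marks ratios under 2-fold. SUZ12 stands at 2.26 against a class median of 0.80, while RNF2, at 0.84, lies close to its own class median of 0.80.

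SUZ12 (ENSG00000178691), the subunit that holds PRC2 together and is needed for its activity, had 291 reads in Control and 2697 in TGS24. These were 34.3 and 165 CPM. TGS24 was 4.79-fold higher, a log2 ratio of 2.26 (interval 2.02 to 2.52). Of all tested genes 99.0% had a lower ratio. In the authors' deposited table SUZ12 is the only 1 of the 10 listed among the called genes, as up, with a log2 ratio of 2.27. The authors' deposited table of filtered genes closes with a line that puts their mean plus 2 SD of log2 ratios at 2.01.

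EZH2 (ENSG00000106462), the methyltransferase of PRC2, had 496 Control and 2294 TGS24 reads, or 58.5 and 141 CPM. It was 2.40-fold higher, with a log2 ratio of 1.26 (interval 1.06 to 1.47). EED (ENSG00000074266), which binds methylated H3 and stimulates EZH2, had 622 and 1902 reads, or 73.4 and 117 CPM. Its ratio of 0.67 (interval 0.48 to 0.86) was above 0 and short of 2-fold. The intervals of SUZ12, EZH2 and EED did not overlap one another, though SUZ12 was picked for its ratio and its interval overlapped that of EZH2 after the GC centring described below.

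The histone-binding proteins RBBP4 and RBBP7, which also serve in the NuRD, SIN3 and chromatin assembly complexes, differed from each other. RBBP7 (ENSG00000102054) had 3415 Control reads and 13877 TGS24 reads, 403 and 850 CPM, the deepest coverage of the set. It was 2.11-fold higher, with a log2 ratio of 1.08 (interval 1.0006 to 1.15), just past the threshold. RBBP4 (ENSG00000162521) had 1508 and 3898 reads, 178 and 239 CPM, and a ratio of 0.42 (interval 0.30 to 0.55). Reads of RBBP4 can be split with its processed pseudogenes, of which RBBP4P2 had 314 and 889 reads and RBBP4P1 had 90 and 501. With the reads of 5 pseudogenes added, an alternative chosen after seeing the data, the RBBP4 ratio was 0.52. Of the RBBP4 exon length 18.0% overlaps SYNC on the opposite strand, which had 2 and 4 reads, and 2.42% of that of RBBP7 overlaps TXLNG, with 99 and 507. The sources used here do not give strand handling, so such reads cannot be told apart.

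JARID2 (ENSG00000008083), an accessory subunit that helps bring PRC2 to its sites, had 283 reads in Control and 625 in TGS24. These were 33.4 and 38.3 CPM, and the log2 ratio of 0.20 had a counting interval of -0.09 to 0.49. The JARID2 interval thus held 0, but it lay above 0, from 0.07 to 0.65, where scaling used no filter on low counts, and from 0.11 to 0.70 after GC centring. Its interval lay wholly below those of SUZ12 and EZH2.

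In PRC1, BMI1 (ENSG00000168283), the PCGF protein known as a stem cell regulator, had 182 Control and 908 TGS24 reads, at 21.5 and 55.6 CPM. BMI1 was 2.58-fold higher, with a log2 ratio of 1.37 (interval 1.05 to 1.71). Of its exon length 23.3% is shared with the readthrough gene COMMD3-BMI1, listed at 0 reads in both libraries, so reads from the shared part may not have been counted for BMI1. PCGF5 (ENSG00000180628), which takes the place of BMI1 in a variant PRC1, had 117 and 526 reads, 13.8 and 32.2 CPM. It was 2.32-fold higher, with a log2 ratio of 1.21 (interval 0.81 to 1.66). The intervals of BMI1 and PCGF5 overlapped widely.

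RNF2 (ENSG00000121481) and RING1 (ENSG00000204227) are the interchangeable ubiquitin ligases of PRC1, and their ratios had opposite signs. RNF2 had 285 Control reads and 987 TGS24 reads, at 33.6 and 60.5 CPM, with a log2 ratio of 0.84 (interval 0.57 to 1.13). RING1, the shallowest member, had 42 and 50 reads, 4.96 and 3.06 CPM. Its log2 ratio of -0.67 had a counting interval of -1.59 to 0.22. Counted on single reads in place of pairs, the RING1 interval lay below 0, from -1.32 to -0.07. The intervals of RNF2 and RING1 did not overlap, though they did after the GC centring described below.

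Levels of different genes were compared per exon length, in RPKM, that is, CPM per kilobase of exon. Exon length was that of all annotated exons of a gene joined, which can far exceed a single transcript. It was 7016 bases for EED against 2223 for its longest coding transcript, and 4073 against 3606 for RNF2. The order of genes depends on this choice of length, beyond the counting intervals. In Control the order ran from RBBP7 at 54.5 through RBBP4 at 18.8, EZH2 at 12.9, EED at 10.5 and RNF2 at 8.26 to JARID2 at 5.55. Below these stood SUZ12 at 5.24, BMI1 at 5.01, RING1 at 2.73 and PCGF5 at 1.66. Counting intervals overlapped between EZH2 and EED, between EED and RNF2, among JARID2, SUZ12 and BMI1, between BMI1 and RING1, and between RING1 and PCGF5, so those neighbours cannot be ordered. In TGS24 RBBP7 again came first at 115, followed by EZH2 at 31.1, SUZ12 and RBBP4 at 25.2 each, EED at 16.6 and RNF2 at 14.8. BMI1 at 13.0, JARID2 at 6.36, PCGF5 at 3.88 and RING1 at 1.68 closed the order. By exon length SUZ12 thus stood at a level near JARID2 and BMI1 in Control and near RBBP4 in TGS24. In TGS24 the intervals overlapped between SUZ12 and RBBP4, between EED and RNF2, and between RNF2 and BMI1.

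**Figure D2:**
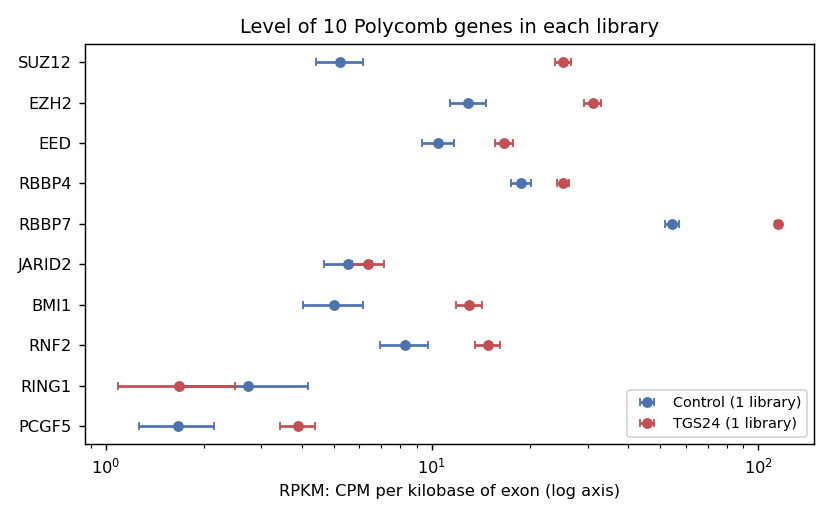
Level of each gene in Control (blue) and TGS24 (red), 1 library each, in RPKM (CPM per kilobase of exon) on a log axis, with 95% counting intervals. SUZ12 moves from 5.24 to 25.2, while the intervals of JARID2 and of RING1 overlap between the libraries.

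Shares of reads within a library do not depend on scaling between libraries, though the part of transcript GC content in them was not tested. RNF2 held 87.2% of the reads of RNF2 and RING1 together in Control, with an exact Clopper-Pearson interval on read pairs from 81.0% to 91.9%. In TGS24 it held 95.2%, from 93.0% to 96.9%, and the intervals did not overlap. The RNF2 transcript had 38.1% GC and that of RING1 61.6%. After the GC centring described below, the log2 ratio of RNF2 was 0.04 (interval -0.23 to 0.33). That of RING1 was -0.26 (interval -1.18 to 0.62), and the 2 centred intervals overlapped. EZH2 held 89.4% of the reads of EZH2 and EZH1 in Control, from 85.1% to 92.7%, and 94.2% in TGS24, from 92.8% to 95.5%. The intervals of the EZH2 share did not overlap, with a gap of under 1 percentage point. The EZH2 transcript had 44.8% GC and that of EZH1 50.5%. After the GC centring described below, the log2 ratios were 1.06 for EZH2 (interval 0.86 to 1.26) and 0.50 for EZH1 (interval -0.13 to 1.18). These centred intervals overlapped. BMI1 held 87.5% of the reads of BMI1 and its close relative PCGF2 in Control, from 79.6% to 93.2%, and 94.8% in TGS24, from 92.4% to 96.6%. The BMI1 intervals overlapped.

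The share of RBBP7 in the reads of RBBP7 and RBBP4 was 69.4% in Control and 78.1% in TGS24, with intervals from 67.5% to 71.2% and from 77.2% to 78.9%. With RBBP4 pseudogene reads included the shares were 64.0% and 72.3%. SUZ12 held 37.0% of the reads of SUZ12 and EZH2 in Control and 54.0% in TGS24, with intervals from 32.2% to 42.0% and from 52.1% to 56.0%. Against EED the SUZ12 share was 31.9% and 58.6%. These intervals, from 27.6% to 36.4% and from 56.6% to 60.7%, did not overlap either. Because SUZ12 was picked for its ratio, its shares restate that choice and are a description. The pseudogene SUZ12P had 2 and 27 reads, and SUZ12 held 99.3% and 99.0% of the reads of both.

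**Figure D3:**
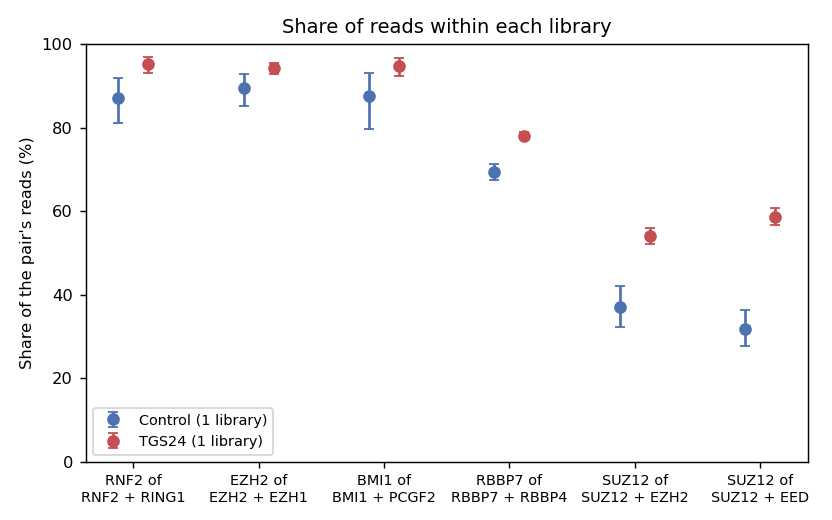
Share of reads of the first gene within each pair in Control (blue) and TGS24 (red), 1 library each, with 95% Clopper-Pearson intervals on read pairs. The share of SUZ12 against EED goes from 31.9% to 58.6%, and the BMI1 intervals overlap.

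The ratios of the Polycomb genes went with the GC content of their transcripts. The 5 genes at least 2-fold higher had transcripts of 33.6% to 45.2% GC, PCGF5 lowest and RBBP7 highest, while the transcript of RING1 had 61.6% and that of JARID2 50.2%. RNF2 at 38.1%, RBBP4 at 41.6% and EED at 45.9% were within or near that range and not 2-fold higher. Over the 10 genes Spearman's rho between GC content and ratio was -0.72 and Pearson's r was -0.79, across genes that share the same pair of libraries. Over 9960 tested genes with a GC value rho was -0.46. Of genes with 38% to 40% GC 34.1% were at least 2-fold higher, with a median log2 ratio of 0.74, against 0.899% of genes with 60% GC or more, with a median of -0.40. The part of GC content in each single ratio was not tested.

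**Figure D4:**
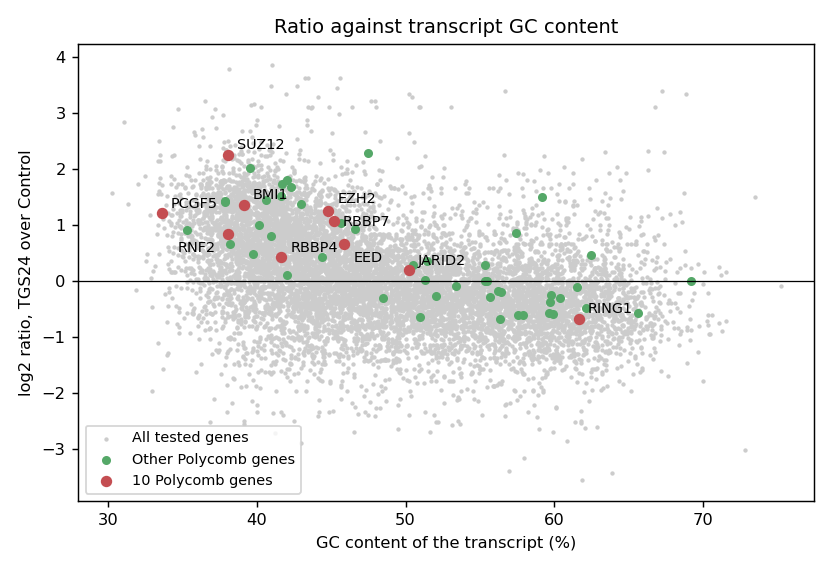
Log2 ratio of TGS24 over Control against GC content of the transcript in percent, for all tested genes (grey), other Polycomb genes (green) and the 10 Polycomb genes (red, named), 1 library per group. The red points run from PCGF5 at 33.6% GC to RING1 at 61.6% and fall from left to right like the grey ones.

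Ratios were also centred on the median of the tested genes in the same of 20 classes of GC content. After centring SUZ12 stood at 1.46 (interval 1.22 to 1.72), and EZH2 at 1.06, from 0.86 to 1.26. SUZ12 and EZH2 were then the 2 genes of the 10 at least 2-fold higher, beside 5.35% of tested genes, and none was 2-fold lower, beside 5.95% of tested genes. RBBP7 stood at 0.87, BMI1 at 0.64 and EED at 0.56, each with an interval above 0 and short of 2-fold. PCGF5 at 0.30 and RNF2 at 0.04 had intervals that held 0. RBBP4 stood at -0.21, from -0.33 to -0.09, the opposite sign of its uncentred ratio. JARID2 stood at 0.40, from 0.11 to 0.70, and RING1 at -0.26, from -1.18 to 0.62. RNF2 and RING1 thus no longer had separate intervals after centring, nor did SUZ12 and EZH2, whereas SUZ12 and EED still did.

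Other genes of the Polycomb system were taken from lists of subunits and partners, 55 with a row and 48 with at least 20 reads. Of these 48 genes 12 were at least 2-fold higher and none was lower, beside 12.7% and 6.31% of all tested genes, with a median log2 ratio of 0.20. After GC centring 6 of them, ASXL2, CBX3, CBX7, OGT, PCGF3 and PCGF6, were at least 2-fold higher and none was lower, beside 5.35% and 5.95% of tested genes. The counts of single lists below are to be read against the same shares.

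Among further PRC2 subunits 2 of 7 measured genes were higher, beside 12.7% of all tested genes, and 0 of 7 after GC centring. They were MTF2, a Polycomb-like protein that helps PRC2 bind DNA, and LCOR, whose locus also encodes a PRC2 partner. MTF2 had 488 and 2555 reads and was 2.71-fold higher, and LCOR had 222 and 1116 and was 2.60-fold higher. The other Polycomb-like genes PHF1 and PHF19 had log2 ratios of -0.58 and -0.60, under the threshold. After GC centring PHF1 and PHF19 stood at -0.13 and -0.24, with intervals that held 0. EZH1, the relative of EZH2, had 59 and 140 reads and a ratio of 0.29 (interval -0.34 to 0.97).

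Among the remaining PCGF and chromobox genes, which set the type of PRC1, 3 of 9 were higher, beside 12.7% of all tested genes, and the same 3 after GC centring. PCGF3, which like PCGF5 joins a variant PRC1, was 4.92-fold higher on 12 and 124 reads, and PCGF6 3.52-fold on 64 and 440. CBX7, a chromobox reader of methylated H3, had 14 and 81 reads and was 2.83-fold higher (log2 interval 0.41 to 2.99). Of 4 measured Polyhomeotic and SCM genes PHC3 was higher, 2.65-fold on 183 and 939 reads, whereas PHC1 and PHC2 had log2 ratios of -0.64 and -0.37. PHC3 and MTF2 had transcripts of 37.9% GC each, and after centring they stood at 0.61 and 0.64. PHC1 and PHC2 then stood at -0.44 and 0.07, with intervals that held 0.

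Partners of variant PRC1 complexes counted 3 higher among 18 measured, a share near the 12.7% of all tested genes, and after GC centring CBX3 alone of the 18 was counted. RYBP, which stimulates RNF2 and RING1, was 2.73-fold higher on 483 and 2541 reads, and its relative YAF2 had a log2 ratio of 0.48. The deubiquitinase USP7 was 2.06-fold higher on 952 and 3780 reads, and CBX3 4.09-fold on 48 and 386. CBX3 has processed pseudogenes, so its count is uncertain. Of 10 measured genes of PR-DUB, the complex that removes the ubiquitin placed by PRC1, 3 were higher, beside 12.7% of all tested genes, and after GC centring ASXL2 and OGT were. They were ASXL2, 3.31-fold on 139 and 893 reads, OGT, 3.23-fold on 1084 and 6750, and KDM1B, 2.88-fold on 22 and 127. BAP1, the enzyme of PR-DUB, had a log2 ratio of -0.30 (interval -0.63 to 0.03).

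The list for the opposing side held H3K27 demethylases and genes of COMPASS-like complexes. Of its 7 measured genes 2 were higher, beside 12.7% of all tested genes. KDM6A, a demethylase that reverses the PRC2 mark, was 2.40-fold higher on 726 and 3357 reads, and NCOA6 was 2.66-fold higher on 181 and 930. KDM6B, the related demethylase, had 82 and 84 reads and a log2 ratio of -0.89 (interval -1.57 to -0.25), short of 2-fold. After GC centring KDM6A and NCOA6 stood at 1.05 and 1.504, and KDM6B at -0.48, with an interval that held 0 (-1.16 to 0.15). Among 18 measured genes of other complexes that hold RBBP4 or RBBP7 only HAT1, a histone acetyltransferase, was at least 2-fold higher, 2.25-fold on 1039 and 4510 reads. HAT1 stood at 0.26 after centring, and the list median was -0.05.

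Genes known as targets of Polycomb repression in other cells were mostly near silent here. Of 37 such genes 9 reached 20 reads, none of these was at least 2-fold higher or lower, beside 12.7% and 6.31% of all tested genes, shares at which few calls would fall among 9 genes. Their median log2 ratio was -0.31, and -0.04 after GC centring. The lowest was PAX6, a developmental factor, with 28 and 30 reads and a ratio of -0.79, from -2.00 to 0.31. HOXA5 had 60 and 124 reads and a ratio of 0.10, and DAB2IP, a RAS regulator known as an EZH2 target in prostate cancer cells, had 466 and 932 and a ratio of 0.05. The DAB2IP interval ran from -0.18 to 0.29. Of the 28 genes under 20 reads NKD1, a Wnt regulator singled out after its values were seen, had 8 reads in Control and 0 in TGS24. For the other genes under 20 reads the counting intervals held 0, so differences were not detectable at this depth.

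**Figure D5:**
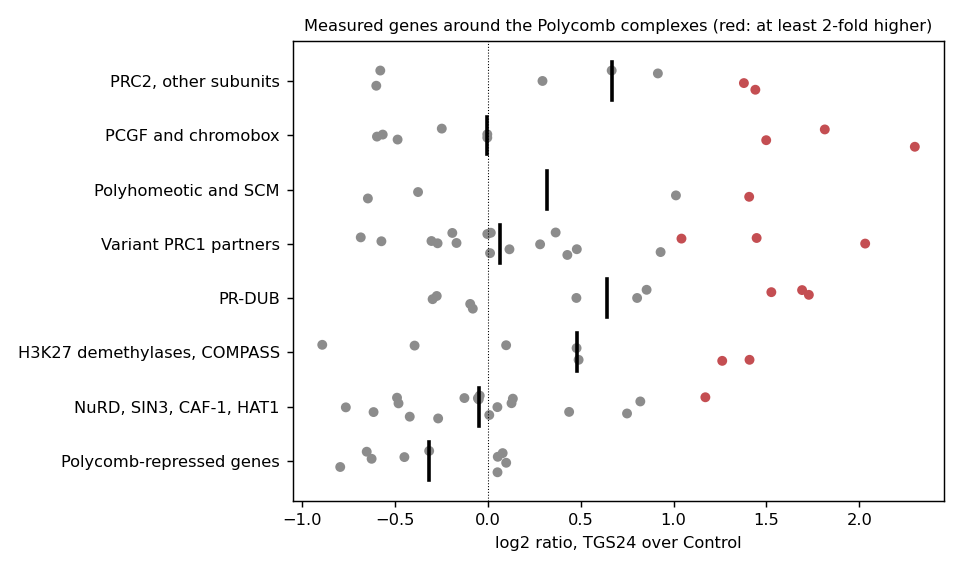
Log2 ratio of TGS24 over Control for each measured gene in 8 lists around the Polycomb complexes, 1 library per group. Red points are at least 2-fold higher with an interval above 0, and grey points are not. Black bars are list medians, at -0.31 for Polycomb-repressed genes and 0.67 for further PRC2 subunits. After GC centring, not drawn here, these medians were -0.04 and 0.007, in that order.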

How the data were processed

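The authors deposited 3 tables of a normalized signal per gene, which the spacing of the values shows to be read counts per gene over a size factor of each library. Per the submitters' processing notes, STAR, Bowtie2 2.2.4, featureCounts 1.5.2, Trimmomatic, DESeq2 and build hg19 were used, with no role given. The deposited ratio (fold change) and its log2 value are TGS24 over Control, by the authors. In the deposited filtered table the log2 column closes with the authors' summary lines and was recorded as a score.

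Dividing by the value of 1 read, 0.969 in Control and 0.506 in TGS24, returned whole numbers of reads (relative tolerance 1e-06) for 99.93% and 99.94% of values above 0. Both mates of a pair appear to be counted, since 75.3% and 73.5% of counts were even, so intervals used read pairs. Irregular rows (49), with repeated or misplaced identifiers or values that differed between tables, were left out, and none was a Polycomb gene described here.

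Library sizes were scaled by TMM (edgeR 4.0.16, R 4.3.3) over genes with at least 20 reads. Log2 ratios used a prior count of 2, and 95% Clopper-Pearson intervals, given the total, cover counting error only. Transcript GC content (longest coding transcript) and exon length came from GENCODE release 29 on GRCh38 by Ensembl identifier, matched for 52289 of 57724 rows. Because the build differs, no hg19 coordinates are printed. The scaling and the calls were also run on simulated counts with known fold changes. That simulation held no GC trend and no variation between samples, so it does not bear on either. Python 3.11.15, pandas 2.3.3, scipy 1.17.1 and numpy 2.4.6 were used, and matplotlib 3.10.9 for plots.

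The genes and lists were chosen with earlier results of these data known. Named were all 10 genes, and pseudogenes or overlapping genes. Of each list other than those of cell markers, every gene at least 2-fold apart was named, otherwise the gene with the largest ratio. The 6 MDA-MB-231 markers at least 2-fold lower were not named one by one. EZH1, PHF1, PHF19, PHC1, PHC2, YAF2, BAP1, KDM6B, HOXA5 and DAB2IP were named after their values were seen. The design allowed no test with 1 library per group. Alternatives were DESeq2 1.42.0 size factors, the authors' scaling, library totals, scaling without small RNA genes, other read minimums and prior counts, intervals on reads and centring by GC content.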

Additional observations from a re-analysis of the deposited data

How the results depend on the processing

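SUZ12 and EZH2 were at least 2-fold higher under all 10 alternatives that recomputed the calls, with log2 ratios from 1.46 to 2.42 and from 1.06 to 1.42. Centring within GC classes lowered the number of Polycomb genes at least 2-fold higher from 5 to 2, that of other Polycomb genes from 12 to 6, and that of all genes from 1281 to 533, with 593 in place of 636 lower. With at least 100 reads 410 genes were lower, among fewer genes tested, and RBBP7 stood at 0.91, under the threshold. With no filter on low counts the median of all genes moved to 0.16 and RNF2 passed, at 1.003, a change smaller than that shift. LCORL and TFDP1 of the other Polycomb genes passed there too. No Polycomb gene, of the 10 or the partners, was at least 2-fold lower under any alternative. With at least 100 reads KDM6B was lower, and after GC centring PAX6 was lower, at -1.43. Without a filter NKD1 was lower, on 8 and 0 reads. Filtered-table values differed from the ratios above by less than the counting interval for all 10 genes. JARID2 had an interval clear of 0 with no filter and after GC centring, and RING1 with intervals on single reads. Depth limits RING1 most, on 42 and 50 reads, and CBX7 and PCGF3 rest on 14 and 12 Control reads. No paired analysis was possible because each group held 1 library, and no replicate could be left out.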
